A study of Mus musculus with 8 samples.

Results

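The microRNA precursor genes on the array are described here in sorted blood progenitors of mice with and without a shortened Hmga2. A probe set was taken as a microRNA probe set where every gene symbol the platform annotation gives it begins with Mir and a digit or with Mirlet7. The rule found 336 of 35556 probe sets (0.945%), which carry 339 symbols. Of these, 305 had 1 symbol and 31 had several, and 7 were named for a host transcript (a longer RNA that holds microRNAs, its symbol ending in hg). Some rows repeat each other, such as 13 of the Mir669a and Mir669p genes and 9 of the Mir467 genes, which leaves 314 probe sets with distinct values.

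RNA came from bone marrow cells of C57BL/6J mice, sorted by flow cytometry and extracted with Trizol. There were 4 groups with 2 arrays each: KLS cells of wild-type mice (WT KLS), KLS cells of ∆Hmga2 mice (TG KLS), MEP cells of wild-type mice (WT MEP) and MEP cells of ∆Hmga2 mice (TG MEP). Each of the 8 arrays held its own RNA preparation, pooled from 4 or 6 mice. The ∆Hmga2 promoter and founder lines, and the age of the mice, were not given in the sources used here. KLS cells are the marrow fraction positive for c-Kit and Sca-1 and negative for lineage markers, which holds stem cells and multipotent progenitors, and MEP cells are the progenitors of megakaryocytes and red cells.

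A microRNA is cut from a longer transcript, first to a hairpin by Drosha and Dgcr8 in the nucleus and then to a short duplex by Dicer1 in the cytoplasm. One strand is loaded into an Argonaute protein, and pairing of its seed, bases 2 to 8, with a messenger RNA guides repression of that message. Members of the let-7 family repress Hmga2 through sites in its 3′ end, and the RNA-binding proteins Lin28a and Lin28b block the maturation of let-7. The probe sets are named for precursor genes, and no value here tells a mature microRNA from the RNA it is cut from. In bulk samples, fewer cells of a type and less RNA per cell cannot be told apart.

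Because let-7 targets Hmga2, the mature strands of this family are shown first. The sequences are those of RefSeq, with coordinates of GRCm38.p6, and capitals mark the seed.
let-7a: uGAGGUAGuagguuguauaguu
let-7c: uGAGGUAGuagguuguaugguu
let-7d: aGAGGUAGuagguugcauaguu
let-7e: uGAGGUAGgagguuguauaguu
let-7f: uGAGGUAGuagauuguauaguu
let-7g: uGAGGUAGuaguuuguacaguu
let-7i: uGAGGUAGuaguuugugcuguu
miR-98: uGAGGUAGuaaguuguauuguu
All 8 lines share the seed GAGGUAG, which 9 precursor genes on the array carry in the RefSeq entries used. The let-7 gene Mirlet7a-2 has only the other strand of its duplex in those entries, so it is not among the 9. Mirlet7d, Mirlet7f-1 and Mirlet7a-1 lie together on the minus strand of chromosome 13, with mature strands at chr13:48536078-48536099, chr13:48537889-48537910 and chr13:48538239-48538260. Mirlet7c-1 lies on the plus strand at chr16:77599672-77599693, beside Mir99a, whose mature strand is at chr16:77598940-77598961. Mirlet7e is at chr17:17830366-17830387 on the plus strand. Mirlet7f-2 at chrX:151912353-151912374 and Mir98 at chrX:151913229-151913250 are neighbours on the plus strand. Mirlet7g is at chr9:106178846-106178867 on the plus strand, and Mirlet7i is at chr10:122985698-122985719 on the minus strand. Of the 305 probe sets with 1 symbol, 273 matched a RefSeq microRNA entry by gene identifier.

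The microRNA probe sets were dim as a group, and a larger share of their variance than of all probe sets lay between arrays of the same group. The median of their mean log2 levels was 4.90, against 6.38 for all probe sets, and 259 of 336 (77.1%) lay below that overall median. Their means ran from 2.26 for Mir297-1 to 10.5 for Mir598, and 18 lay above the upper quartile of the array. Differences between the arrays of a group held 62.7% of the variance of the microRNA probe sets (52.1% for all probe sets), and cell type held 12.4% of it (21.8%). These shares rest on 4 degrees of freedom within groups and 1 each for cell type, genotype and interaction. The design alone therefore puts a large share within groups. The gaps themselves were mostly small: the median gap between the arrays of a group was 0.17 to 0.23 log2 (0.18 to 0.22 for all probe sets), and 1.49% to 2.98% of microRNA probe sets had a gap over 1 log2 (3.83% to 5.93% of all). The first component of that within-group variation held 54.5%, and it put WT KLS 1, TG KLS 1, WT MEP 1 and TG MEP 2 on one side and their partners on the other. No label gives a batch that matches this split. With the split as a block in the fit, an alternative chosen after seeing the data, the count of called microRNA probe sets stayed 0 in each contrast, and that of all probe sets between KLS and MEP cells went from 1 to 50.

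The sorted identities and the genotype were checked on the same arrays. Of 8 probe sets for KLS genes, 7 were higher in KLS cells at an unadjusted limma p under 0.05, and only Hlf, a stem cell transcription factor, passed after adjustment (2.24 ± 0.10 log2, limma adjusted p = 0.00901). Of 7 probe sets for MEP genes, 2 were lower in KLS cells at that unadjusted level. Over the 12 neutrophil and monocyte genes the median log2 level was 9.87 to 10.47 on the KLS arrays, 9.82 and 8.84 on the first and second WT MEP arrays, and 7.82 and 8.12 on those of TG MEP. Over 4 B cell genes it was 8.78 on WT MEP 1 and 6.44 to 6.74 on the other MEP arrays. Hmga2 was measured at 6.85 and 7.12 in WT KLS, 7.35 and 7.11 in TG KLS, 6.70 and 6.74 in WT MEP, and 6.95 and 6.99 in TG MEP cells. Its TG minus WT difference was 0.25 log2 in each cell type and did not pass the threshold. The files do not say which part of Hmga2 its probes match, so this value does not check the allele.

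No let-7 precursor passed a test between genotypes or between cell types. Of the 10 let-7 family probe sets, 0 had an unadjusted limma p under 0.05 in any of the 5 contrasts tested. Of all 35556 probe sets, 2.77% to 11.2% reached that level, depending on the contrast. A count of 0 among 10 is therefore not read as a trait of let-7. After adjustment over all probe sets, 0 of the 10 passed. The list's median difference was -0.0096 log2 between KLS and MEP cells, -0.091 for TG minus WT in KLS cells and 0.074 for TG minus WT in MEP cells, beside medians over all probe sets of -0.0013, -0.014 and 0.0018. The 95% intervals of single members are wide: their median reach to each side, over all microRNA probe sets, was 0.34 log2 between cell types and 0.47 between genotypes in a cell type, so equal levels are not shown.

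**Figure D1:**
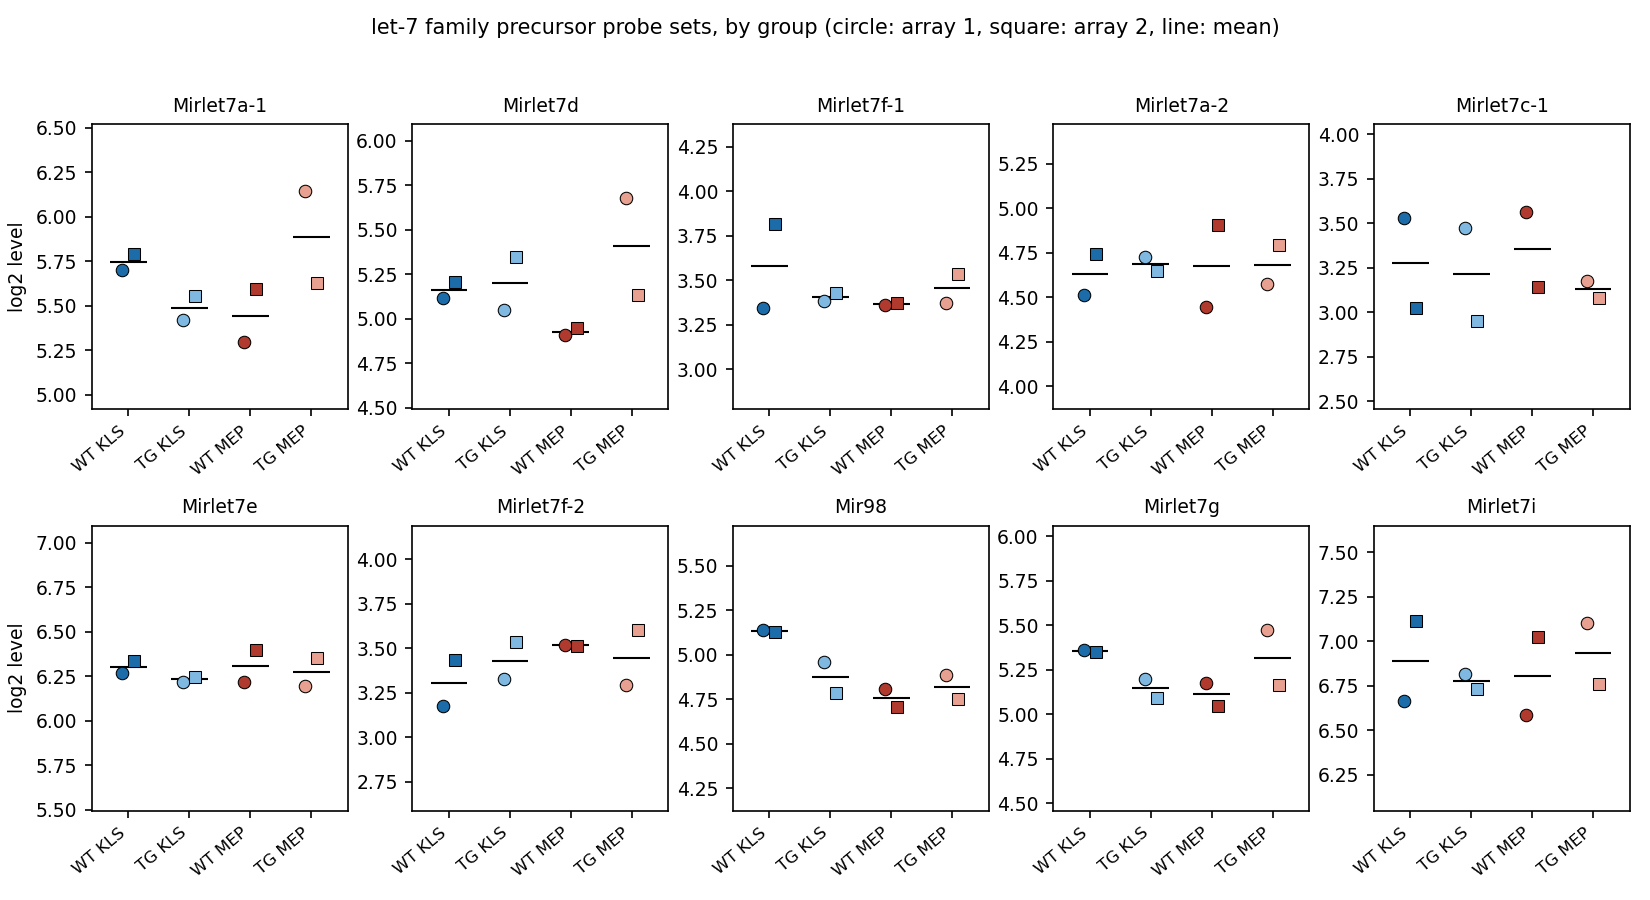
Log2 level of each let-7 family probe set on each of the 8 arrays (vertical axes, log2 units), with the groups on the horizontal axes, circles for array 1, squares for array 2 and a line for the mean of a group. TG MEP 1 is the highest array for Mirlet7a-1 (6.15), Mirlet7d (5.68) and Mirlet7g (5.47), and TG MEP 2 is nearer to the other groups.

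In the chromosome 13 cluster, Mirlet7a-1 was measured at 5.70 and 5.79 in WT KLS, 5.42 and 5.56 in TG KLS, 5.30 and 5.59 in WT MEP, and 6.15 and 5.63 in TG MEP cells. TG was below WT in KLS cells and above it in MEP cells, without overlap of the arrays in either. Arrays of the genotypes also did not overlap for 28% of all probe sets in KLS cells and 31.8% in MEP cells. The difference was -0.25 ± 0.21 in KLS cells and 0.44 ± 0.21 in MEP cells (limma SE), and the interaction, the KLS difference minus the MEP difference, was -0.70 with a 95% interval of -1.40 to 0.01 (limma adjusted p = 1.00).

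Mirlet7d was at 5.12 and 5.21 in WT KLS, 5.05 and 5.35 in TG KLS, 4.91 and 4.95 in WT MEP, and 5.68 and 5.14 in TG MEP cells. Its MEP arrays did not overlap between genotypes, as for 31.8% of all probe sets, at a difference of 0.48 with an interval of -0.02 to 0.98. Mirlet7f-1, the third gene of the cluster, lay between 3.34 and 3.81 on all 8 arrays, and its genotype differences were -0.17 in KLS and 0.09 in MEP cells. The TG MEP values of Mirlet7a-1 and Mirlet7d rest most on TG MEP 1.

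Mirlet7g was at 5.36 and 5.35 in WT KLS, 5.20 and 5.09 in TG KLS, 5.18 and 5.05 in WT MEP, and 5.47 and 5.17 in TG MEP cells. The TG KLS arrays lay below both WT KLS arrays, as for 15.5% of all probe sets, at a difference of -0.21 ± 0.15. Mir98 was at 5.14 and 5.13 in WT KLS, 4.96 and 4.79 in TG KLS, 4.81 and 4.71 in WT MEP, and 4.89 and 4.75 in TG MEP cells. WT KLS was its highest group, and KLS minus MEP was 0.21 ± 0.09 with an interval of -0.01 to 0.44 (limma adjusted p = 0.479).

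Mirlet7i, at 6.59 to 7.11, and Mirlet7e, at 6.19 to 6.40, varied between the arrays of a group about as much as between groups. The differences of Mirlet7i were -0.11 in KLS and 0.13 in MEP cells, each with an SE of 0.23. Mirlet7a-2 (4.44 to 4.90), Mirlet7c-1 (2.95 to 3.57) and Mirlet7f-2 (3.17 to 3.60) had genotype differences between -0.22 and 0.13. The Mirlet7c-2 and Mirlet7b genes are named on probe sets shared with the transcript Lncppara, outside the rule, so those values belong to no single gene.

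Between KLS and MEP cells the comparison asks which precursors differ between stem and multipotent progenitors and megakaryocyte and red cell progenitors. The host transcript Mir99ahg, which holds Mir99a, Mirlet7c-1 and Mir125b-2, had the smallest p among microRNA probe sets and was higher in KLS cells. Mir155, a microRNA of activated lymphocytes and myeloid cells, Mir10b, which lies among the Hox genes, and Mir34a, a target of p53, were also higher in KLS cells without overlap of the arrays, and Mir130a was lower. None passed the threshold. Of the 336 microRNA probe sets, 0 were called by limma after adjustment, where 0.00281% of all probe sets were (1 of 35556, Hlf). At an unadjusted p under 0.05 there were 10 (2.98%), 8 higher and 2 lower in KLS cells, against 11.2% of all probe sets (5.39% higher and 5.84% lower). The 4 KLS arrays and the 4 MEP arrays did not overlap for 8 microRNA probe sets (2.38%), all higher in KLS cells, against 7.54% of all probe sets (3.51% higher). The median difference was 0.020 log2 with 209 of 336 above 0 (62.2%, against 49.7% of all probe sets). As deposited the median was -5e-04 with 167 above 0, and after median centring of each array it was -0.028 with 149, so its sign depends on the scaling. Neutrophil and monocyte genes moved with the same comparison, with 12 of 12 higher in KLS cells at an unadjusted p under 0.05 and a median list difference of 1.2 log2, and their part in the microRNA differences was not tested.

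The strands of members described next are shown because Mir130a and Mir130b share a seed and differ in opposite directions, with capitals for bases 2 to 8.
miR-130a: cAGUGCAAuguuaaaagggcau
miR-130b: cAGUGCAAugaugaaagggcau
miR-155: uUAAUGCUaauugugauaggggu
miR-10b: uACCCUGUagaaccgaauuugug
miR-34a: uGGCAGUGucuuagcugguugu
miR-99a: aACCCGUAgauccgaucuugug
Their mature strands are at chr2:84741116-84741137 on the minus strand for Mir130a, chr16:17124071-17124092 on the minus strand for Mir130b, chr16:84714143-84714165 on the plus strand for Mir155, chr2:74726074-74726096 on the plus strand for Mir10b, and chr4:150068473-150068494 on the plus strand for Mir34a.

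One Mir99ahg probe set, 10436596, was at 6.17 and 6.42 in WT KLS, 6.80 and 6.86 in TG KLS, 6.26 and 6.07 in WT MEP, and 5.86 and 5.98 in TG MEP cells. Both TG KLS arrays were above the other 6, while WT KLS 1 lay below WT MEP 1. KLS minus MEP was 0.52 ± 0.11 log2 (limma adjusted p = 0.184). A second Mir99ahg probe set, 10436590, was at 5.16 and 4.71 in WT KLS, 5.46 and 4.90 in TG KLS, 5.07 and 4.20 in WT MEP, and 4.13 and 4.10 in TG MEP cells, a difference of 0.68 ± 0.24. Of the other two, 10436588 lay between 5.61 and 6.07 on all arrays, with a difference of 0.013, and 10436598 ran from 3.43 to 5.67, with WT KLS 2 alone above 4.29.

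Mir130a was at 3.09 and 3.23 in WT KLS, 3.29 and 3.04 in TG KLS, 3.94 and 3.77 in WT MEP, and 3.18 and 3.30 in TG MEP cells. Both WT MEP arrays stood above the rest, and the cell type difference was -0.39 ± 0.11 (limma adjusted p = 0.256). Mir130b, which shares its seed, went the other way, at 5.80, 6.00, 5.82 and 5.77 on the KLS arrays and 5.60, 5.64, 5.63 and 5.68 on the MEP arrays.

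Mir155 was at 6.08, 6.12, 5.91 and 6.00 on the KLS arrays and 5.78, 5.79, 5.80 and 5.77 on the MEP arrays. The 4 MEP arrays lay close together, and the difference was 0.24 ± 0.08 (limma adjusted p = 0.351). Mir10b was at 3.09, 3.17, 3.18 and 3.34 on the KLS arrays and 2.96, 2.85, 3.0 and 2.94 on the MEP arrays, a difference of 0.26 ± 0.09. Mir34a was at 4.67, 4.31, 4.51 and 4.29 on the KLS arrays and 4.07, 4.22, 3.89 and 4.27 on the MEP arrays. Its lowest KLS array was just above its highest MEP array. Mir298, Mir488, Mir592 and Mir470 completed the 8 that did not overlap.

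**Figure D2:**
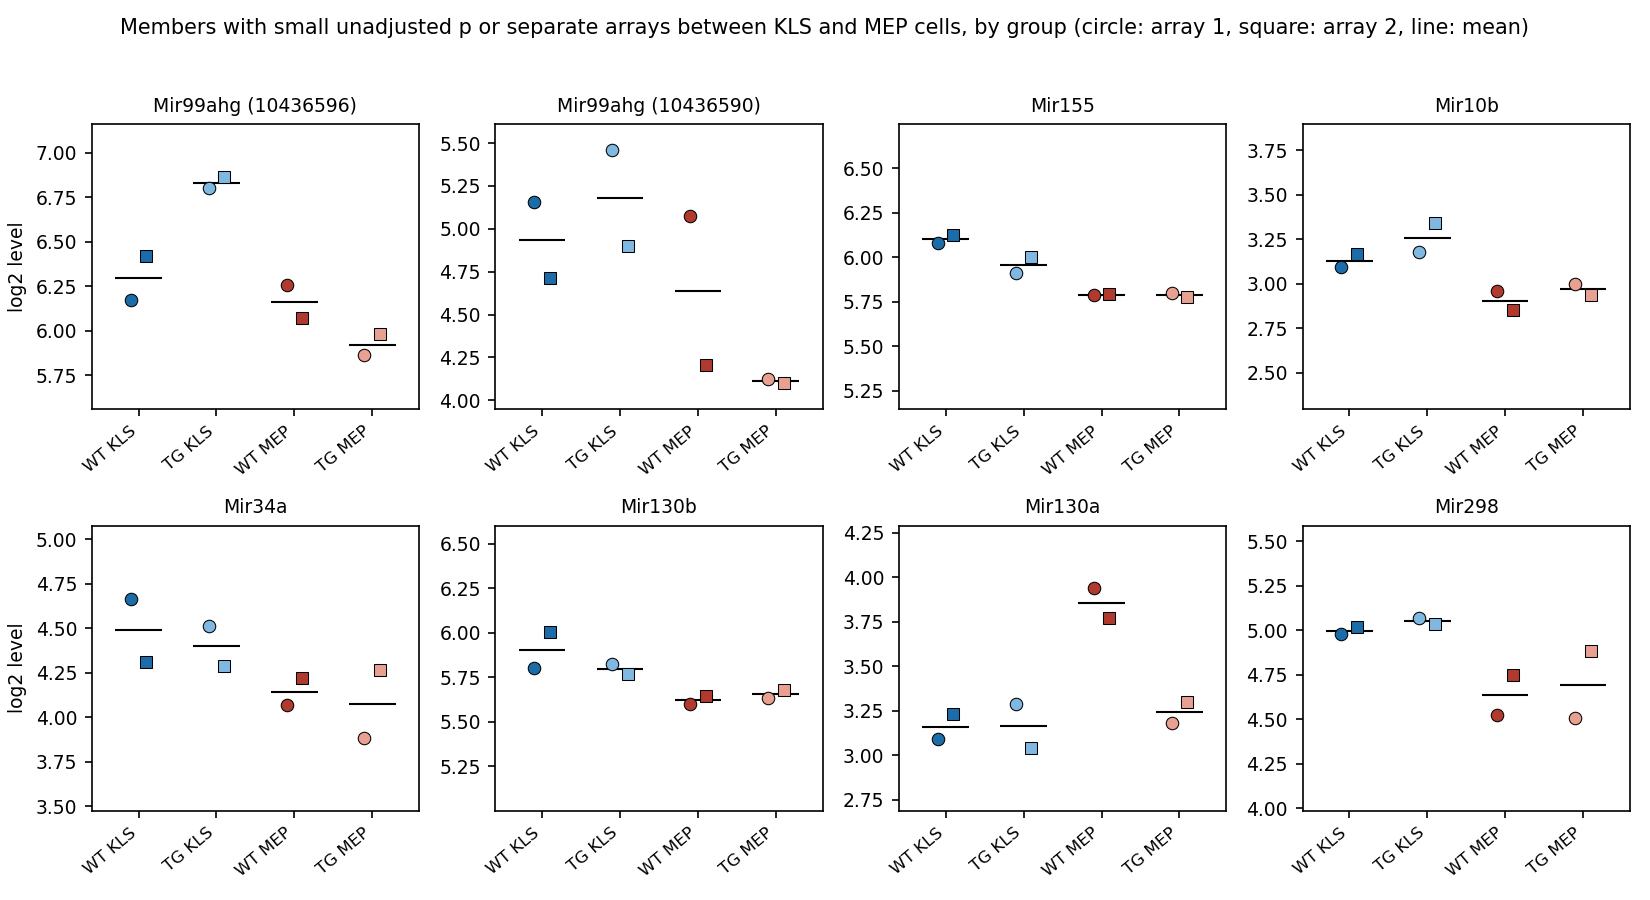
Log2 level on each array (vertical axes, log2 units) of 8 microRNA probe sets with small unadjusted p or separate arrays between KLS and MEP cells, with circles for array 1, squares for array 2 and lines for group means. Mir155 and Mir10b are above all MEP arrays on all 4 KLS arrays, and Mir130a is highest on the WT MEP arrays (3.94 and 3.77).

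The microRNAs best known from blood cells were taken as a list, which also held some of other tissues, such as Mir205 and Mir122. Symbols were matched exactly, so Mir126a on the array was not counted for the listed Mir126. Of 73 symbols listed, 57 were found on a probe set of their own, of which 2 were higher in KLS cells and 1 lower at an unadjusted limma p under 0.05 (Mir155, Mir10b and Mir130a), a level that 11.2% of all probe sets reached. Their median KLS minus MEP difference was -0.021 log2, beside -0.0013 over all probe sets. The erythroid microRNAs Mir144 and Mir451a, which share a transcript, had differences of -0.065 and -0.097, with levels of 2.36 to 2.60 and 4.88 to 5.25. Mir150, a lymphocyte microRNA, was at 6.67 to 7.50 with a difference of -0.065, and Mir196b, a Hox cluster microRNA, was at 5.70 to 6.20 with a difference of 0.12.

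The Mir17 cluster, a polycistron known for driving proliferation, shows arrays that part within groups. Mir18 was at 7.16 and 5.32 in WT KLS, 6.84 and 5.37 in TG KLS, 7.53 and 5.77 in WT MEP, and 5.58 and 6.25 in TG MEP cells. Array 1 was above array 2 by 1.47 to 1.84 log2 in 3 groups, and the gap was -0.67 (array 1 minus array 2) in TG MEP cells, and the root mean square of its gaps over the 4 groups, 1.51, was the highest of all microRNA probe sets. Mir17 was at 7.15 and 6.12 in WT KLS, 6.92 and 5.91 in TG KLS, 7.03 and 5.84 in WT MEP, and 6.04 and 6.31 in TG MEP cells. Mir142, a microRNA of all white cells, had the same arrays high, at 6.23, 5.92 and 6.27 on the first arrays of WT KLS, TG KLS and WT MEP, and 4.75, 5.18 and 4.89 on the second.

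The mature strands of this cluster's first genes are shown because the pattern is shared by neighbours with different seeds.
miR-17: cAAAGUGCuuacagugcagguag
miR-18a: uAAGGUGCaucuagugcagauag
They are at chr14:115043684-115043706 and chr14:115043867-115043889 on the plus strand. The probe set named for the host transcript Mir17hg alone had WT KLS 1 lowest at 6.60 and the other arrays at 7.21 to 7.70. That probe set did not follow Mir17 and Mir18. A probe set shared by Mir92-1 and Mir17hg had smaller gaps with the same signs as theirs. Its array 1 minus array 2 gaps were 0.13 in WT KLS, 0.46 in TG KLS, 0.39 in WT MEP and -0.40 in TG MEP cells. The TG minus WT differences of Mir18 were -0.13 in KLS cells and -0.73 in MEP cells, and those of the 5 cluster members in MEP cells were all below 0, from -0.73 to -0.063, with 0 at an unadjusted p under 0.05.

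**Figure D3:**
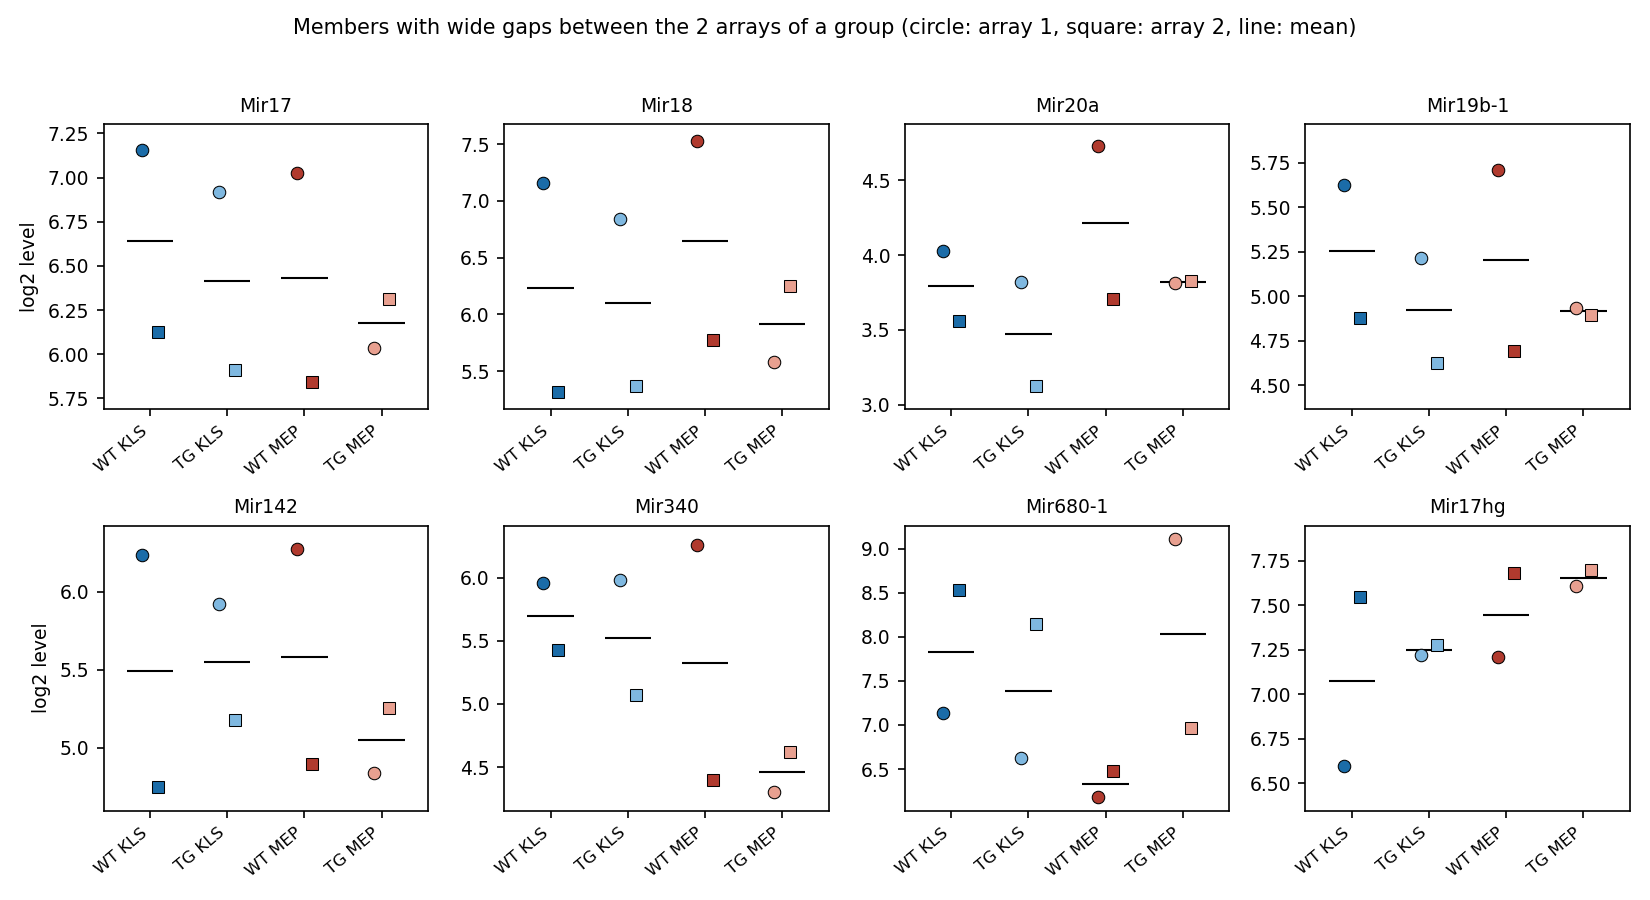
Log2 level on each array (vertical axes, log2 units) of 8 microRNA or host transcript probe sets, most of them with wide gaps between the arrays of a group, with circles for array 1, squares for array 2 and lines for group means. For Mir17 and Mir18 the circle is above the square in 3 groups and below it in TG MEP, and Mir680-1 reaches 9.11 on TG MEP 1.

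In KLS cells the genotype comparison asks whether precursor levels differ with the shortened Hmga2 among stem and multipotent progenitors. More microRNA probe sets were lower than higher in TG KLS cells, by small amounts: 240 of 336 differences were below 0, with a median of -0.079 log2 beside -0.014 over all probe sets. Differences were above 0 for 28.6% of the microRNA probe sets and 46.7% of all probe sets. With repeated rows counted once, the microRNA median was -0.079. The members with the smallest p were the Mir99ahg probe set 10436596 and Mir15b, which were higher, and Mir202, which was lower, none past the threshold. The TG minus WT difference of that Mir99ahg probe set in KLS cells was 0.54 ± 0.15, with its arrays given above (limma adjusted p = 1.00). By limma 0 microRNA probe sets were called after adjustment, as were 0 of all probe sets (0%). At an unadjusted p under 0.05 there were 3 (0.893%), against 3.11% of all probe sets. Arrays did not overlap for 95 (28.3%), 21 higher and 74 lower in TG (22.0%), against 28% of all probe sets (12.5% higher and 15.5% lower). As deposited 92 of 336 differences were above 0 in place of 96, and after median centring of each array 127 were, with medians of -0.061 and -0.031.

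Mir202, a microRNA of gonads, was at 3.57 and 4.40 in WT KLS, 3.19 and 3.15 in TG KLS, 3.23 and 3.12 in WT MEP, and 3.15 and 3.25 in TG MEP cells. Only the WT KLS arrays stood apart, and they differed from each other by 0.82, more than TG KLS differed from either MEP group. TG minus WT in KLS cells was -0.81 ± 0.26 (limma adjusted p = 1.00). Mir15b, of a family that targets Bcl2, was at 2.47 and 2.82 in WT KLS and 3.07 and 3.21 in TG KLS cells, a difference of 0.49 ± 0.16 (limma adjusted p = 1.00). These levels lie below the array's lowest quartile of 5.30, and its cluster neighbour Mir16-2 had a difference of -0.034 in KLS cells.

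Mir107, a relative of Mir103-2 that lies in the gene Pank1, was at 6.61 and 6.82 in WT KLS and 6.47 and 6.21 in TG KLS cells, a difference of -0.38 ± 0.16. Mir505 was at 6.67 and 7.99 in WT KLS, 7.94 and 8.78 in TG KLS, 7.97 and 8.27 in WT MEP, and 8.28 on both TG MEP arrays. It had the only difference of at least 1 log2 among microRNA probe sets in this contrast (1.19% of all probe sets had one), 1.03 ± 0.46, and its WT KLS arrays were 1.32 apart.

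In MEP cells the same question is put to erythroid and megakaryocyte progenitors. Mir130a and Mir96 were lower in TG MEP cells and Mir713 and Mir701 higher, none past the threshold. Of the 336 microRNA probe sets, 0 were called by limma after adjustment, with 0 of all probe sets (0%). At an unadjusted p under 0.05 there were 7 (2.08%), against 3.07% of all probe sets. The arrays did not overlap for 88 (26.2%), 40 higher and 48 lower in TG, against 31.8% of all probe sets (15.3% higher and 16.5% lower). The median difference was 0.036 log2, beside 0.0018 over all probe sets, and 193 of 336 were above 0 (57.4%, against 50.4% of all probe sets). As deposited 253 were above 0 with a median of 0.11, and with median centring 236 with a median of 0.081, so the size of this shift depends on the scaling. Neutrophil and monocyte genes moved in the same comparison, with 7 of 12 lower in TG MEP cells at an unadjusted p under 0.05 and list levels of 9.82, 8.84, 7.82 and 8.12 on the 4 MEP arrays, and their part in these differences was not tested.

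Mir130a, whose values stand above, was at -0.61 ± 0.15 for TG minus WT in MEP cells. In KLS cells both genotypes lay between 3.04 and 3.29, so the interaction was 0.62 with an interval of 0.11 to 1.13 (limma adjusted p = 1.00). Mir96, of a cluster known from sensory cells, was at 5.08 and 5.16 in WT MEP and 4.75 and 4.61 in TG MEP cells, a difference of -0.44 ± 0.14. Mir99a was at 4.25 and 4.30 in WT KLS, 5.02 and 4.14 in TG KLS, 4.42 and 4.63 in WT MEP, and 3.50 and 4.02 in TG MEP cells. TG MEP lay below WT MEP on both arrays, at -0.77 ± 0.31, and TG KLS 1 was the highest array.

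One Mir713 probe set, 10405751, was at 5.38 and 5.48 in WT MEP and 6.52 and 5.82 in TG MEP cells, a difference of 0.74 ± 0.25. The other two Mir713 probe sets had the TG MEP 1 array at 6.05 and 5.95 and the TG MEP 2 array at 5.12 and 4.98, near the WT MEP arrays at 4.90 to 5.30. The largest difference of all in this contrast was that of Mir680-1 at 1.71, with TG MEP arrays at 9.11 and 6.96 and WT MEP arrays at 6.18 and 6.48. Its replicate gap in TG MEP cells, 2.15, exceeds the difference.

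Averaged over cell types, 0 microRNA probe sets passed limma's adjusted threshold, as did 0 of all probe sets (0%). There were 6 (1.79%) at an unadjusted p under 0.05, against 3.32% of all probe sets. Mir701 was higher in TG cells in both cell types, at 2.44 and 2.59 in WT KLS, 2.72 and 2.79 in TG KLS, 2.60 and 2.54 in WT MEP, and 2.89 and 2.96 in TG MEP cells. All 4 TG arrays were above all 4 WT arrays, at a difference of 0.30 ± 0.09 (limma adjusted p = 0.999), at a level near the bottom of the array. For 15 microRNA probe sets (4.46%) the TG and WT arrays did not overlap within either cell type and differed in the same direction in both. The share was 4.6% of all probe sets. This count compares the genotypes within each cell type, not all 4 TG arrays with all 4 WT arrays. Mir34b, a p53 target related to Mir34a by seed, was lower in TG cells, with a difference of -0.30 ± 0.11, at 6.16 and 6.06 in WT KLS, 5.66 and 5.90 in TG KLS, 5.96 and 6.16 in WT MEP, and 5.78 and 5.82 in TG MEP cells. For the interaction, 0 were called after adjustment with 0% of all probe sets, and 7 (2.08%) had an unadjusted p under 0.05, against 2.77%. The average and the interaction use the same arrays as the contrasts within a cell type, so their values are not counted as support for each other.

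**Figure D4:**
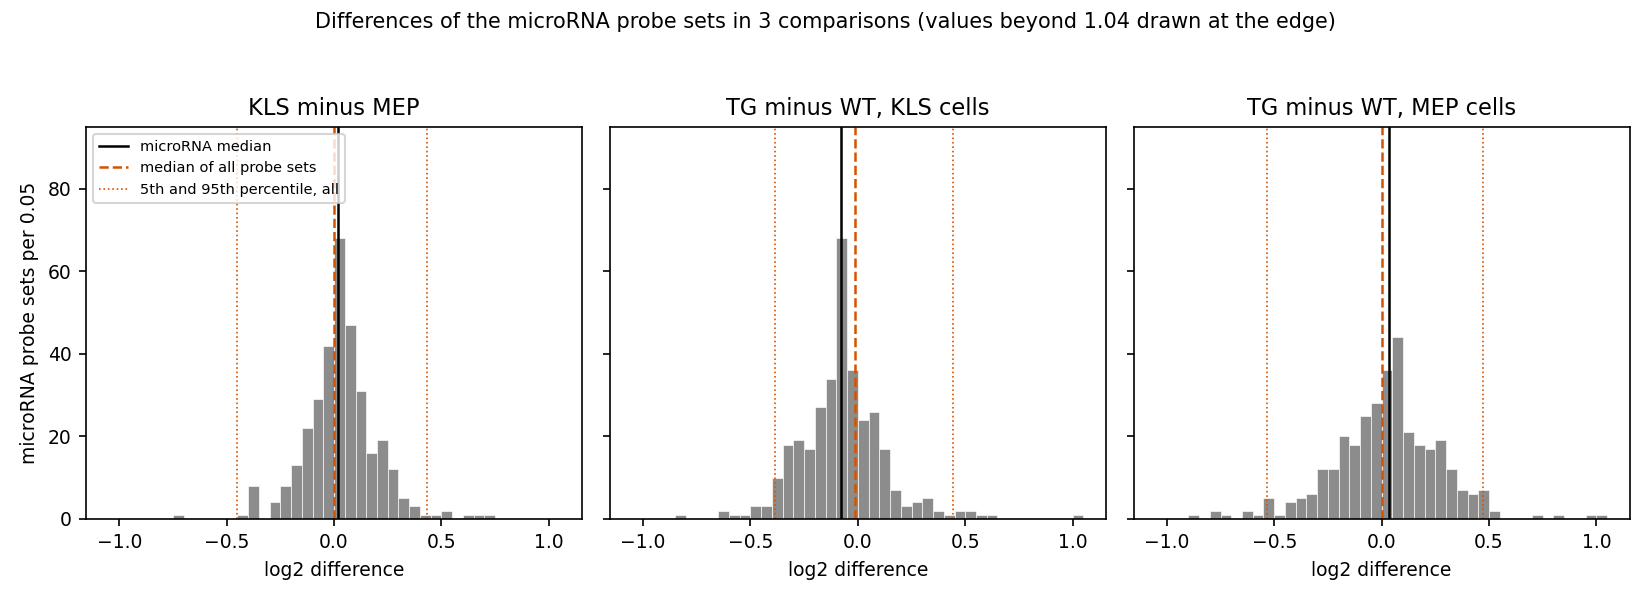
Number of microRNA probe sets per 0.05 log2 units (vertical axis) by log2 difference (horizontal axis) for KLS minus MEP cells and for TG minus WT in each cell type, with a solid line at their median, a dashed line at the median of all probe sets and dotted lines at the 5th and 95th percentiles of all probe sets. The median is 0.020 for KLS minus MEP, -0.079 in KLS cells and 0.036 in MEP cells.

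Of the probe sets with 1 symbol, 260 could be placed by a hairpin entry. Of these, 133 formed 41 clusters, in which neighbours lie within 10 kb of each other on the same strand. The Mir713 cluster is 3 probe sets of that gene alone. Probe sets that could not be placed are left out, so some neighbours may be missing. The largest cluster, from Mir379 to Mir369 on chromosome 12, lies in the imprinted Dlk1 and Dio3 region, a locus known from quiescent stem cells, and had 29 probe sets. Its median difference was 0.056 log2 between KLS and MEP cells, with 23 of 29 higher in KLS, -0.083 for TG minus WT in KLS cells, with 23 of 29 lower, and -0.065 in MEP cells, with 19 of 29 lower. Over all microRNA probe sets, 62.2% of differences were above 0 between KLS and MEP cells. For TG minus WT, 28.6% were above 0 in KLS cells and 57.4% in MEP cells. The sign of their KLS minus MEP median depended on the scaling, and the cluster was not examined under other scalings. In none of these 3 contrasts did a member of the Mir379 to Mir369 cluster reach an unadjusted p under 0.05. Its array medians ran from 3.36 to 3.66, below the array's lowest quartile of 5.30. Other clusters on chromosome 12 differed from it. The 7 probe sets from Mir337 to Mir136 had medians of -0.044, -0.098 and 0.098 in the same 3 contrasts. Those of Mir341 and Mir370 were 0.066, -0.17 and 0.36.

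The machinery that makes and uses microRNAs showed no called difference. Of 34 listed genes, 33 were found on 37 probe sets, and 0 passed in any of the 5 contrasts by limma. At an unadjusted p under 0.05, Tsn, a subunit of an RNA-cleaving complex, and Ran, which drives nuclear export, were lower in KLS cells, at -0.33 and -0.24 log2, and Gemin4, a protein of Argonaute complexes, was higher in TG KLS cells by 0.50. Dicer1 was at 9.98, 9.30, 10.01 and 9.65 on the KLS arrays and 9.89, 9.80, 9.61 and 9.81 on the MEP arrays. Lin28b, which blocks let-7 maturation, was at 4.82, 4.67, 4.67 and 4.80 on the KLS arrays, at 4.56 and 4.78 in WT MEP cells and at 5.47 and 4.80 in TG MEP cells. TG MEP 1, the highest array for Mirlet7a-1 and Mirlet7d, was also the highest for Lin28b, and a link between them was not tested. The TG MEP 1 array also parted from TG MEP 2 for other members, by 2.15 for Mir680-1, 1.55 for Mir7b and -0.89 for Mir30e.

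Many precursors lie inside a protein-coding gene on the same strand, and a probe set annotated to that host gene was read beside them. Where a host had several probe sets, the brightest was taken. Its position was not checked, so it need not read the same transcription unit. Host genes were measured for 82 microRNAs in 83 pairs. Host and microRNA differed in the same direction between KLS and MEP cells in 41 of 83 pairs, with r = 0.14 across pairs, which share arrays and in part hosts and are not independent. Of the 68 hosts, 6 had an unadjusted p under 0.05, as had 4 of the 82 microRNAs and 11.2% of all probe sets, and 0 pairs had both. Rnf130, a ubiquitin ligase, was higher in KLS cells by 0.41 ± 0.09, and Mir340 inside it by 0.71 ± 0.43, with array 1 above array 2 by 0.53 to 1.87 in 3 groups. Srebf2, the regulator of cholesterol synthesis, was at 0.45 ± 0.16 and Mir33 inside it at 0.16 ± 0.10. Focad, a focal adhesion protein, was at -0.46 ± 0.16 and Mir491 inside it at 0.14 ± 0.14.

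**Figure D5:**
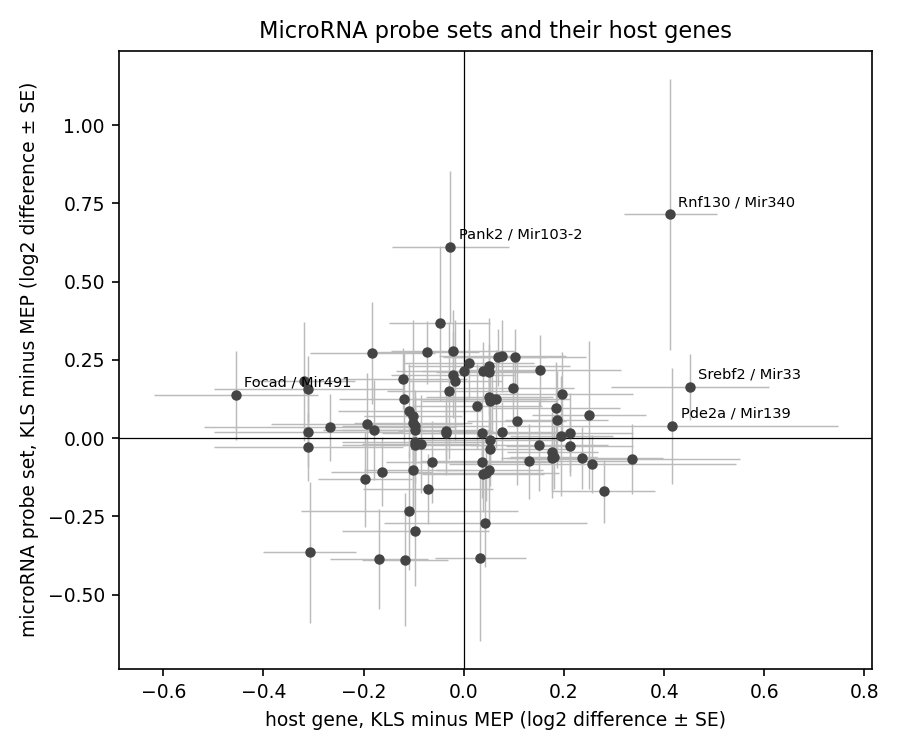
KLS minus MEP log2 difference of the microRNA probe set (vertical axis) against that of the host gene (horizontal axis) in 83 pairs of 82 microRNAs and 68 hosts, with bars for limma SE. Host and microRNA share a direction in 41 of 83 pairs, and Rnf130 with Mir340 (0.41 and 0.71) is the pair with the highest microRNA difference.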

How the data were processed

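RNA of 8 sorted marrow preparations was measured on Affymetrix gene arrays, with groups and replicate numbers taken from the sample titles. The authors deposited log2 values, a scale read from the values themselves, for 35556 probe sets (1.71 to 14.0, array medians 6.34 to 6.45). The submitters' processing notes name Affymetrix Expression Console. How probes were summarized and arrays scaled was not given in the sources used here. There is no read depth, so the number of arrays sets the precision.

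All arrays were quantile normalized together because the medians spanned 0.106. Each probe set was tested singly in R 4.3.3 by limma 3.58.1, with lmFit, contrasts.fit and eBayes at their defaults, 1 mean per group, 4 residual and 2.49 prior degrees of freedom, two-sided, with Benjamini-Hochberg adjustment over all 35556 probe sets and a threshold of adjusted p under 0.05. The contrasts were KLS minus MEP, TG minus WT in each cell type and averaged, and the interaction. The procedure was run on simulated data with independent noise and added changes of 1 to 4 log2. That run did not cover smaller changes or deviations shared between arrays. Errors are limma's SE. Genes were named by rule: all let-7 probe sets and Mir98, members past the threshold, otherwise up to 5 with the smallest p per direction, and listed blood microRNAs; others named were chosen after their values were seen. Members and lists were chosen with earlier results of these data known. Each preparation pools mice, so p-values measure the spread between pools. Alternatives were the scaling, a dim filter, symbols alone, variance models, array weights, thresholds, 1 cell type alone, blocks and leaving out each array. The replicate block is described with the alternatives. Gene symbols come from the platform annotation.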

Additional observations from a re-analysis of the deposited data

How the results depend on the processing

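The count of called microRNA probe sets was 0 in all 5 contrasts under every alternative, and the smallest limma adjusted p of a named microRNA over them was 0.0866. Over all probe sets, the count called between KLS and MEP cells was 1, and it became 72 with probe sets that have a symbol alone, 2 with the replicate number as a block and 50 with the TG MEP numbers exchanged in that block, a pairing chosen after seeing the data. Leaving out 1 array gave 0 to 31, with 31 without WT MEP 1. The deviations of same-numbered arrays correlated at 0.163 to 0.392 over all probe sets among WT KLS, TG KLS and WT MEP (0.396 to 0.454 over the microRNA probe sets) and at -0.373 to -0.217 with TG MEP (-0.502 to -0.251), so the numbers were not taken as pairs across all 4 groups. The cause of these changes was not tested.

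The median TG minus WT difference over microRNA probe sets in MEP cells was 0.11 as deposited and 0.13 with the dimmest 30% of probe sets left out (127 microRNA probe sets remained), and that of the interaction was -0.20 and -0.24. Of 2205 alternative values for 132 named differences, 2095 kept their direction and side of the threshold, 110 reversed direction and 0 crossed the threshold. The reversals in KLS minus MEP were, with median centring, Mirlet7d at -0.026, Mirlet7c-1 at -0.10, Mir181b-1 at -0.012, Mir19b-1 at -0.0071, Mir16-1 at -0.042, Mir29b-1 at -0.039 and Mir125b-1 at -0.0094, and, as deposited, Mirlet7c-1 at -0.074, Mirlet7e at 0.0024, Mir16-1 at -0.015 and Mir29b-1 at -0.012. For TG minus WT in MEP cells they were, as deposited, Mirlet7e at 0.023 and Mirlet7f-2 at 0.087, and Mirlet7f-2 at 0.060 with median centring.

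Leaving out 1 array at a time reversed 47 named differences, whose values ran over the ranges given here. In KLS minus MEP these were Mirlet7i -0.15 to 0.075, Mirlet7d -0.12 to 0.15, Mirlet7f-1 -0.037 to 0.20, Mirlet7a-1 -0.18 to 0.082, Mirlet7c-1 -0.13 to 0.13, Mirlet7e -0.069 to 0.022, Mirlet7a-2 -0.14 to 0.093, Mirlet7g -0.041 to 0.11, Mir181b-1 -0.092 to 0.20, Mir205 -6e-04 to 0.44, Mir142 -0.17 to 0.58, Mir196a-1 -0.14 to 0.12, Mir146 -0.29 to 0.034, Mir203 -0.21 to 0.072, Mir17 -0.073 to 0.52, Mir18 -0.57 to 0.35, Mir19a -0.071 to 0.29, Mir19b-1 -0.22 to 0.28, Mir16-1 -0.10 to 0.14, Mir15a -0.24 to 0.072, Mir196a-2 -0.11 to 0.061, Mir125a -0.10 to 0.13, Mir122 -0.32 to 0.035, Mir146b -0.24 to 0.13, Mir15b -0.17 to 0.0076, Mir16-2 -0.13 to 0.084, Mir25 -0.060 to 0.10, Mir106b -0.10 to 0.047, Mir29a -0.21 to 0.066, Mir150 -0.20 to 0.074, Mir24-2 -0.024 to 0.19, Mir181c -0.13 to 0.17, Mir100 -0.16 to 0.12, Mir125b-1 -0.057 to 0.22, Mir191 -0.14 to 0.052, Mir425 -0.15 to 0.027. For TG minus WT in KLS cells they were Mirlet7i -0.34 to 0.11, Mirlet7d -0.11 to 0.19, Mirlet7f-1 -0.41 to 0.065, Mirlet7c-1 -0.33 to 0.20, Mirlet7a-2 -0.056 to 0.17, Mirlet7f-2 -0.0035 to 0.26. For TG minus WT in MEP cells they were Mirlet7i -0.092 to 0.35, Mirlet7e -0.12 to 0.058, Mirlet7a-2 -0.22 to 0.24, Mirlet7f-2 -0.22 to 0.086, Mir98 -0.0096 to 0.13. With 2 arrays per group, differences of this size are within the spread between replicates, and dim probe sets limit what the arrays can resolve.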
